A study of Mus musculus with 6 samples.

Results

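The nicotinic acetylcholine receptor of muscle and the genes that gather it at the nerve contact were followed in differentiating C2C12 cells, an established mouse myoblast line, after depletion of the H19 transcript. The set holds 10 genes of 19938 with 1 gene symbol on the array, and was chosen by name. They are the receptor subunits Chrna1, Chrnb1, Chrnd, Chrng and Chrne and the clustering genes Musk, Dok7, Rapsn, Lrp4 and Agrn. Each had 1 probe set of its own, and all 10 were tested.

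Cells were wild-type C2C12 grown with 10% fetal bovine serum and moved to 2% horse serum at high density to start differentiation. On day 1 of differentiation 3 samples received a control siRNA (siCon) and 3 received an siRNA against mouse H19 (simH19), and RNA was taken 40 h later for 1 whole-transcript array each. Separate cultures are not stated for the triplicates, so each p-value refers to the spread among these arrays, part or all of which may be technical. The cultures hold muscle cells alone, with no nerve named in the labels, which limits them as a model of the synapse.

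The muscle receptor is a pentameric channel opened by acetylcholine. A fetal form carries the gamma subunit (Chrng), which the epsilon subunit (Chrne) replaces as synapses mature, while the alpha (Chrna1), beta (Chrnb1) and delta (Chrnd) subunits are shared. At the synapse agrin (Agrn) binds LRP4, which activates the receptor tyrosine kinase MuSK together with the adaptor DOK7, and rapsyn (Rapsn) then anchors the receptors in clusters. Myogenic factors such as MyoD and myogenin bind E-boxes upstream of several of these genes, and Ets factors such as GABP bind the N-box of synaptic genes.

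The letters upstream of 3 subunit genes are shown. Chrng and Chrne tell the fetal and adult receptors apart, and Chrna1 is shared by both. They come from RefSeq (GRCm38.p6) and are read 5′ to 3′ on the strand of the gene, ending before the outermost annotated start. Capitals mark E-boxes (CANNTG, which reads the same on both strands) and the N-box (CCGGAA, searched on both strands), and no E-box overlaps an N-box.
Chrna1, chr2:73580339-73580588, minus strand: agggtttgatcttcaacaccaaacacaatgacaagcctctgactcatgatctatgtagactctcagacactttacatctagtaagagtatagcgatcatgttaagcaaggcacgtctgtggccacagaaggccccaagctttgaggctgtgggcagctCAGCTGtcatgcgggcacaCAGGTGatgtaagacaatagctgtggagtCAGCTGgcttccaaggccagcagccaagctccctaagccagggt
Chrng, chr1:87205561-87205810, plus strand: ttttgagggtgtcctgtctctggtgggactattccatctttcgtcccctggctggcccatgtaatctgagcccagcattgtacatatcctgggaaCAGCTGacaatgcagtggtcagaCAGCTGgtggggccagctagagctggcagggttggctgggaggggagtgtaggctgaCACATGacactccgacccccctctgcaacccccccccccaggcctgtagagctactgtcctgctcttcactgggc
Chrne, chr11:70619214-70619444, minus strand: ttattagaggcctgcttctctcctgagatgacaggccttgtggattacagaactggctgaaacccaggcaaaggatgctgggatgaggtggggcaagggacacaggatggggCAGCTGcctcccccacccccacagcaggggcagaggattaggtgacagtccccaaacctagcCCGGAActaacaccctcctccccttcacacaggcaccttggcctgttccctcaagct

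The Chrna1 stretch held 3 E-boxes, of which 2 read CAGCTG, and the Chrng stretch also held 3, of which 2 read CAGCTG. The Chrne stretch held 1 E-box, also CAGCTG, and 1 N-box. The promoter table had windows for 7 of the 10 genes (not for Chrnd, Rapsn and Lrp4). In the 250 bases before the start, all 7 had an E-box in at least 1 window, 4 had CAGCTG (Chrna1, Chrng, Chrne and Musk) and 1 had the N-box. Dok7 and Agrn had 2 windows each, and 1 window of each held 0 E-boxes. These counts are by gene, and the shares that follow are by window. Of all 32851 windows of the same length 66.2% held an E-box, 13% held CAGCTG and 12% held the N-box. A match describes the letters and is not evidence of binding.

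Values are the authors' RMA log2 expression of each probe set, and a difference is the mean of the H19 siRNA arrays minus that of the control arrays. Array medians lay between 6.73 and 6.78, and the 15 pairs of arrays correlated across all rows with r from 0.9958 to 0.9975. The second H19 siRNA array had a mean r of 0.9962 with the other arrays. No probe set is listed under H19. The probe set listed under Mir675, a microRNA hosted by H19, and Supt6 read 26.9% of control with H19 siRNA (limma adjusted p = 1.80e-05). In the fit over 21559 units (genes, and probe sets listed under several symbols), 43 units or 0.199% passed a Benjamini-Hochberg adjusted p of 0.05, 27 higher (62.8%, or 0.125% of units) and 16 lower (0.0742% of units). After each array was centred on its median the split was 19 higher (52.8%) of 36.

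None of the 10 receptor and synapse genes passed the threshold in limma, so 0 were called higher and 0 lower. All 10 had a positive difference, against 58% of all units, and their median difference (log2) was 0.13, against 0.01 over all units. For 6 genes (Chrnd, Chrng, Musk, Dok7, Rapsn and Agrn) every H19 siRNA array read above every control array, which was so for 10.5% of all units. The same 6 had an unadjusted limma p under 0.05, against 6.61% of units that were higher and 4.25% that were lower at that p. The differences ran from 0.01 for Lrp4 to 0.32 for Rapsn. After median centring 8 of the 10 were positive, with Chrne and Lrp4 slightly below 0.

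**Figure D1:**
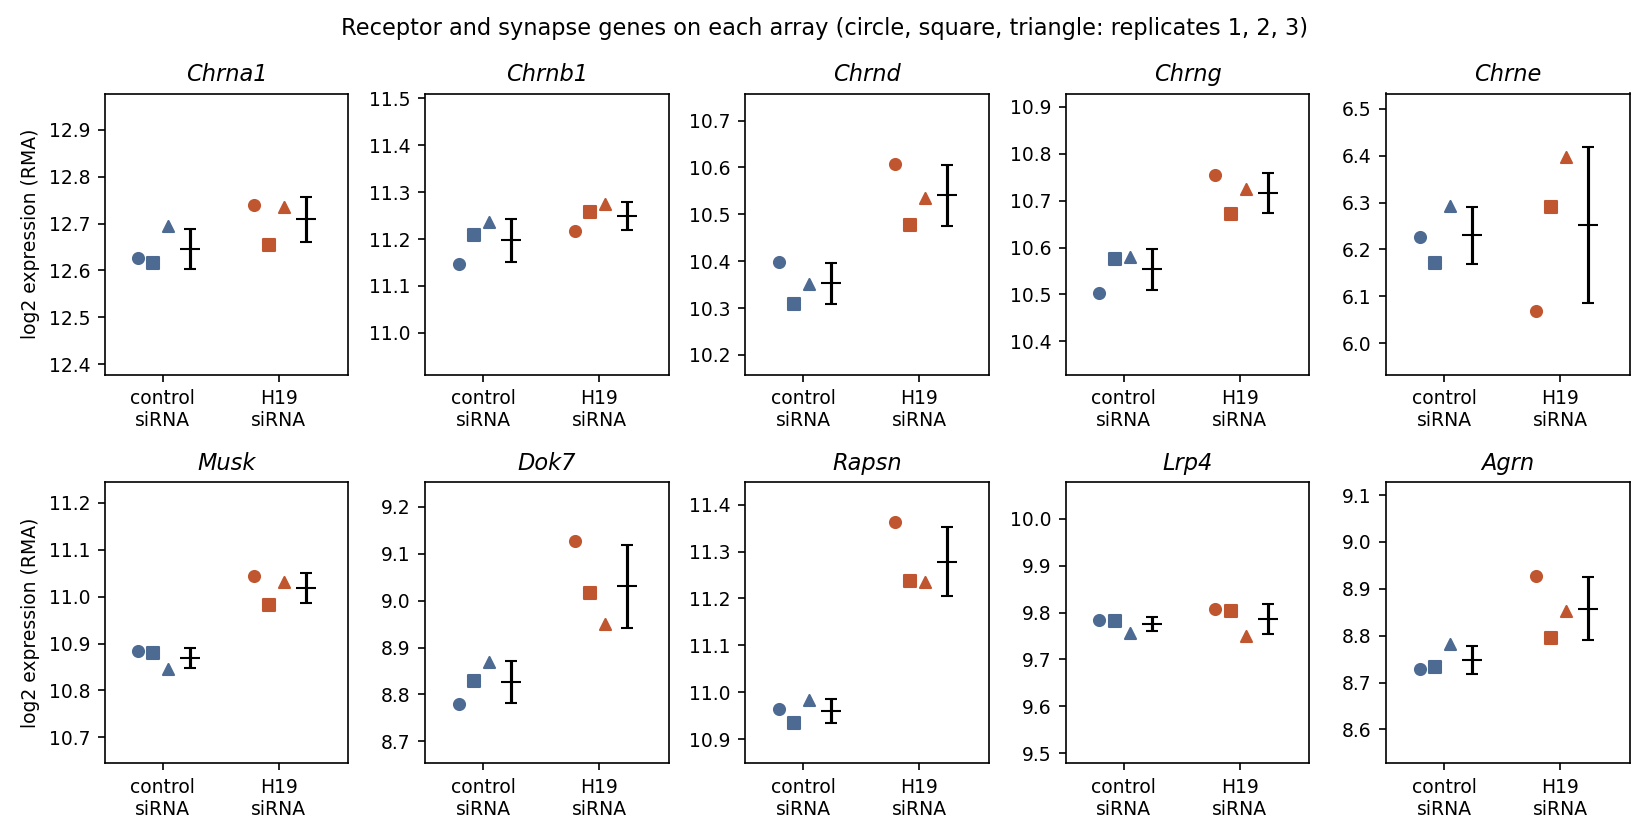
Log2 expression (RMA) of the 10 receptor and synapse genes on each of 6 arrays, with control siRNA in blue and H19 siRNA in orange, 1 symbol per replicate and a black bar for mean ± SD (n = 3 per group). Every panel spans the same height. The Rapsn panel has the widest gap, between 10.98 and 11.23, and the groups overlap in the panels of Chrna1, Chrnb1, Chrne and Lrp4.

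Among the subunits shared by both receptor forms, delta stood higher with H19 siRNA and alpha and beta overlapped. Chrnd read 10.40, 10.31 and 10.35 on control arrays 1 to 3 and 10.61, 10.48 and 10.54 on H19 siRNA arrays 1 to 3. The groups did not overlap. The difference was 0.19 (SE 0.05, 95% interval 0.08 to 0.30), a ratio of 1.14, with a limma adjusted p of 0.231. Chrna1, which forms most of the acetylcholine binding site, read 12.63, 12.62 and 12.69 with control siRNA and 12.74, 12.65 and 12.74 with H19 siRNA. The second H19 siRNA array lay below the highest control array, so the groups overlapped. Its difference was 0.06 (SE 0.04, 95% interval -0.03 to 0.16, limma adjusted p = 0.632). Chrnb1 read 11.15, 11.21 and 11.24 with control siRNA and 11.22, 11.26 and 11.27 with H19 siRNA. Here the first H19 siRNA array lay below the highest control array. The difference was 0.05 (SE 0.04, 95% interval -0.04 to 0.14, limma adjusted p = 0.678), and 0.03 without the first control array. These intervals leave out increases of alpha and beta above 0.16 on the log2 scale, and they overlap the interval of delta.

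The fetal gamma subunit was higher on every H19 siRNA array, and the adult epsilon subunit varied more between arrays than between groups. Chrng read 10.50, 10.58 and 10.58 with control siRNA and 10.75, 10.67 and 10.72 with H19 siRNA. The groups did not overlap, and the difference was 0.16 (SE 0.04, 95% interval 0.07 to 0.26), a ratio of 1.12, with a limma adjusted p of 0.234. Chrne read 6.23, 6.17 and 6.29 with control siRNA and 6.07, 6.29 and 6.40 with H19 siRNA. The H19 siRNA arrays lay on both sides of the control arrays, with the first lowest of all 6 and the third highest. Its difference was 0.02 (SE 0.08, 95% interval -0.18 to 0.22, limma adjusted p = 0.946). The table holds no detection calls, and the Chrne probe set lay below the median of all units, so a low level cannot be told from background.

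The balance of the fetal and adult subunits was compared within each array. Chrng minus Chrne was 4.28, 4.41 and 4.29 with control siRNA and 4.69, 4.38 and 4.33 with H19 siRNA, a probe set difference and not a ratio of transcripts. The group means were 4.32 ± 0.07 and 4.46 ± 0.19 (SD, n = 3 each), and they differed by 0.14. An exact two-sided permutation test gave p = 0.3, and the smallest p that 3 against 3 arrays allow is 0.1. The groups overlapped, and the first H19 siRNA array alone lay above all controls. Without it the difference was 0.03. Chrnd and Chrng lie next to each other on chromosome 1, with 0 protein-coding genes between them in the RefSeq table, while Chrne lies on chromosome 11.

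Rapsyn showed the largest difference of the 10 genes. Rapsn read 10.96, 10.93 and 10.98 with control siRNA and 11.36, 11.24 and 11.23 with H19 siRNA. All 3 H19 siRNA arrays lay above the controls, and the first was the highest. The difference was 0.32 (SE 0.05, 95% interval 0.21 to 0.43), a ratio of 1.25, with a limma adjusted p of 0.0750. With an intensity trend and robust variance in limma the adjusted p was 0.000340, and it was 0.0131 among units with a mean at or above the median. It was 0.0425 with the filter at the 30th percentile and 0.0433 with array weights. It rose to 0.119 after median centring, 0.201 over all rows and 0.317 with the replicate number as a block. Across the fits with 1 array left out the adjusted p of Rapsn ran from 0.120 to 0.359. Lrp4, the agrin receptor, lies on the same chromosome 2 with 11 protein-coding genes between it and Rapsn. Lrp4 read 9.78, 9.78 and 9.76 with control siRNA and 9.81, 9.80 and 9.75 with H19 siRNA. The third H19 siRNA array was the lowest of all 6. The difference was 0.01 (SE 0.03, 95% interval -0.07 to 0.09, limma adjusted p = 0.926), and it was -0.01 after median centring. With 1 array left out it ran from 0.0018 without the first H19 siRNA array to 0.030 without the third.

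The kinase MuSK and its adaptor DOK7 were both higher on every H19 siRNA array. Musk read 10.88, 10.88 and 10.85 with control siRNA and 11.04, 10.98 and 11.03 with H19 siRNA. Its arrays lay close together in each group, with an SD of 0.02 and 0.03. The difference was 0.15 (SE 0.03, 95% interval 0.07 to 0.23), a ratio of 1.11, with a limma adjusted p of 0.216. Dok7 read 8.78, 8.83 and 8.87 with control siRNA and 9.13, 9.02 and 8.95 with H19 siRNA. The lowest H19 siRNA array was 8.95 and the highest control array 8.87. Its difference was 0.21 (SE 0.05, 95% interval 0.08 to 0.33), a ratio of 1.15, with a limma adjusted p of 0.249.

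Agrin, the ligand, is made by motor neurons and in a less active form by muscle, and the probe set does not tell the forms apart. Agrn read 8.73, 8.73 and 8.78 with control siRNA and 8.93, 8.79 and 8.85 with H19 siRNA. The groups were separated only narrowly, by 8.78 against 8.79. The difference was 0.11 (SE 0.04, 95% interval 0.00 to 0.21), with a limma adjusted p of 0.443. Without the first H19 siRNA array it was 0.07, with an unadjusted limma p of 0.135.

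**Figure D2:**
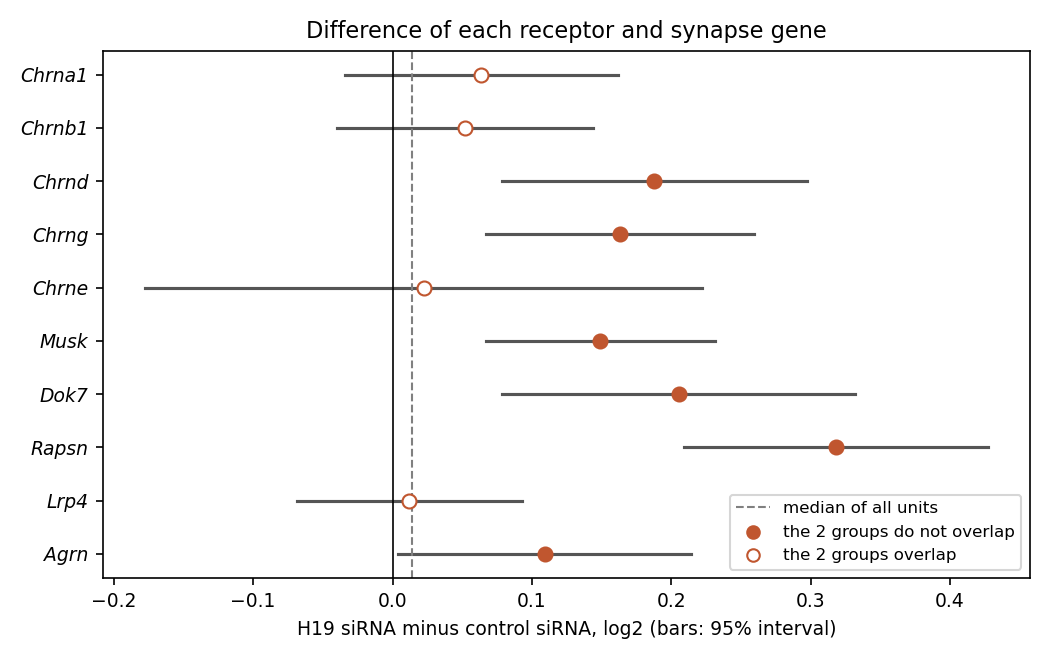
Difference of each gene, H19 siRNA minus control siRNA (log2), with the 95% interval from limma (n = 3 per group). Filled points are the 6 genes whose groups did not overlap, and the dashed line is the median of all units at 0.01. The intervals of Chrna1, Chrnb1, Chrne and Lrp4 include 0, and Chrne and Lrp4 are slightly below 0 after median centring.

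The calls differed between processing choices. With an intensity trend and robust variance 4 of the 10 genes passed in limma, Rapsn, Musk (adjusted p = 0.0132), Chrnd (0.0201) and Chrng (0.0214), all higher. In that fit 1.12% of all units were called higher. Dok7 was at an adjusted p of 0.0705 there. In units with a mean at or above the median, which leave out Chrne, 2 of 9 genes passed, Rapsn and Musk (adjusted p = 0.0445), where 1.35% of units were called higher. Rapsn alone of the 10 passed with array weights (0.227% of units called higher) and with the filter at the 30th percentile (0.431%). Leaving out any 1 array left 0 of the 10 past the threshold, and 5 or 6 of the 10 with an unadjusted limma p under 0.05. In those fits from 0.00464% to 0.0974% of all units passed, so a count of 0 says little about the 10 genes. From 1665 to 2612 of 21559 units had an unadjusted limma p under 0.05 there.

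**Figure D3:**
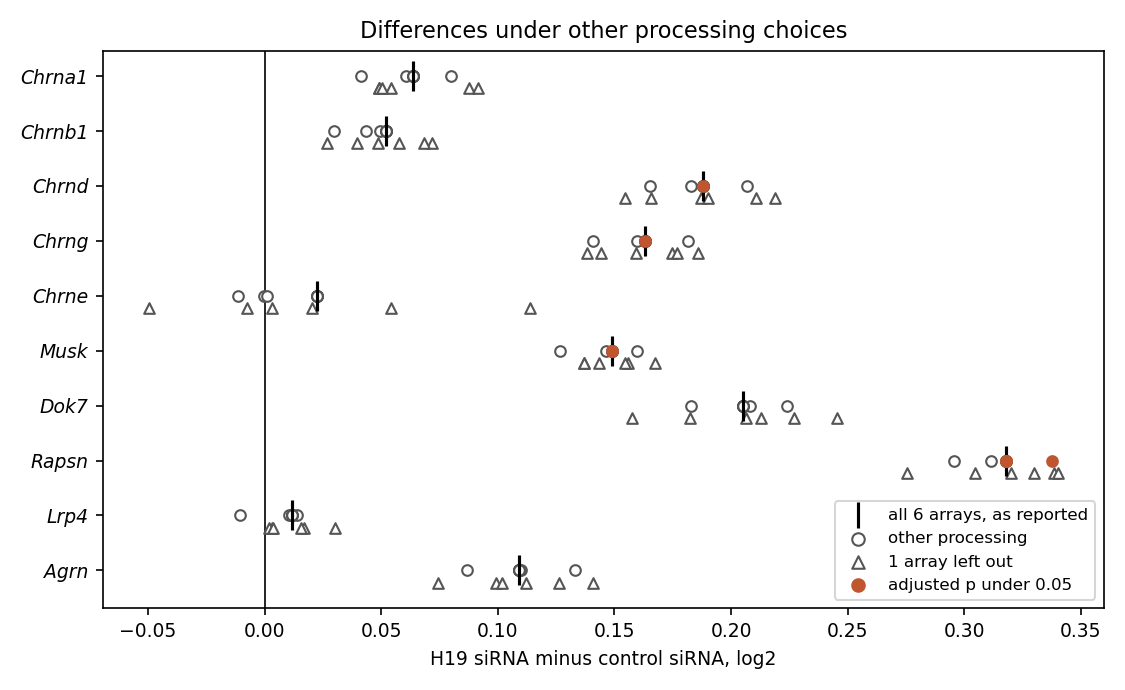
Difference of each gene (log2, H19 siRNA minus control siRNA) with all 6 arrays (black bar), under 9 other processing choices (circles, 8 for Chrne, which the filter at the median leaves out) and with 1 array left out (triangles), orange where the limma adjusted p was under 0.05. The intensity trend, both filters, averaged probe sets, all rows and replicate block leave every difference unchanged, so their circles show only the calls. Rapsn stays between 0.28 and 0.34, a range set by leaving out arrays. Chrne lies on both sides of 0, and Lrp4 reaches -0.01 after median centring.

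The highest values came mostly from one array. The first H19 siRNA array was the highest of all 6 for 8 of the 10 genes, against 19.2% of all units. It was the lowest for Chrne. Its array median over all rows was 6.74, inside the range of the controls. The second H19 siRNA array was the highest for 0 of the 10 genes, against 22.97% of all units. Without the first H19 siRNA array the differences were 0.28 for Rapsn, 0.16 for Dok7, 0.15 for Chrnd, 0.14 for Chrng and 0.14 for Musk. Without the second they were 0.34 for Rapsn, 0.21 for Dok7, 0.22 for Chrnd, 0.19 for Chrng and 0.17 for Musk.

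The genes around the receptor machinery had differences centred close to 0. Of 136 measured genes in 6 lists of the synapse pathway, 0 passed over all units in limma, while 13 were higher and 5 lower at an unadjusted p under 0.05. Their median difference was 0.02, and 26 were higher and 9 lower with groups that did not overlap. Over all units the shares were 6.61% higher and 4.25% lower at that p, and 10.5% higher and 7.09% lower without overlap.

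Downstream of MuSK, 35 signalling and cytoskeleton genes had a median of 0.01, with 22 positive. Cdk5r1, an activator of the kinase CDK5 that disperses receptor clusters, had a difference of 0.19 (limma adjusted p = 0.253), with groups that did not overlap. The cytoskeletal linker Plec was at 0.08, the kinase Src at 0.08 and the intermediate filament nestin (Nes) at 0.09, all with an unadjusted p above 0.05. The 28 genes of the postsynaptic membrane and basal lamina had a median of 0.02, with 19 positive. Dag1, which encodes dystroglycan, read 12.35 ± 0.03 and 12.54 ± 0.02 (SD, n = 3 each), a difference of 0.20 with a limma adjusted p of 0.111. Ache, the esterase that ends the acetylcholine signal, was at 0.15. Its probe set read 5.99 with control siRNA and lay below the median of all units, so its level cannot be told from background. The basal lamina protein Nid1 was at -0.16 and the syntrophin Sntb2 at -0.12, both lower on every H19 siRNA array.

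Genes that control transcription of synaptic genes went both ways. Of 15 neuregulin and Ets genes 6 were positive, with a median of -0.01. The Ets factors Etv1 (-0.25, limma adjusted p = 0.134) and Etv5 (-0.09) were lower on every H19 siRNA array, and Ets2 (0.15) and Jun (0.09) were higher on every one. Of 23 activity and denervation genes 16 were positive, with a median of 0.04. At an unadjusted p under 0.05 this list held 7 higher and 0 lower, where 6.61% of all units were higher and 4.25% lower. The members with the smallest p were Myog (0.22), Myod1 (0.23), Sik1 (0.22), a kinase that acts on class II histone deacetylases, and Myf5 (0.13). Their groups did not overlap, which follows in part from picking them by p over the same arrays. Their limma adjusted p-values ran from 0.0779 for Myog to 0.290 for Myf5. Myog, Myod1 and Myf5 are also among the muscle markers below, so the counts of these lists share genes.

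The 20 genes of receptor assembly, glycosylation and turnover had a median of 0.00, with 10 positive and 10 negative. Myo5a, a motor protein tied to receptor recycling, was at -0.12. Tmem35a, a chaperone of nicotinic receptors, was at 0.21, Alg2 at 0.07 and Dpagt1 at -0.07, all with an unadjusted p above 0.05. The Tmem35a probe set read 5.16 with control siRNA and lay below the median of all units, so its level cannot be told from background. The 16 other acetylcholine receptor genes, nicotinic subunits of neurons and muscarinic receptors, all lay below the median of all units, with a median difference of 0.05. Chrna6 (0.16) had an unadjusted limma p of 0.00687 at a level of 4.87 with control siRNA. Chrna10 was at 0.15, Chrnb2 at -0.14 and Chrm5 at -0.13.

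**Figure D4:**
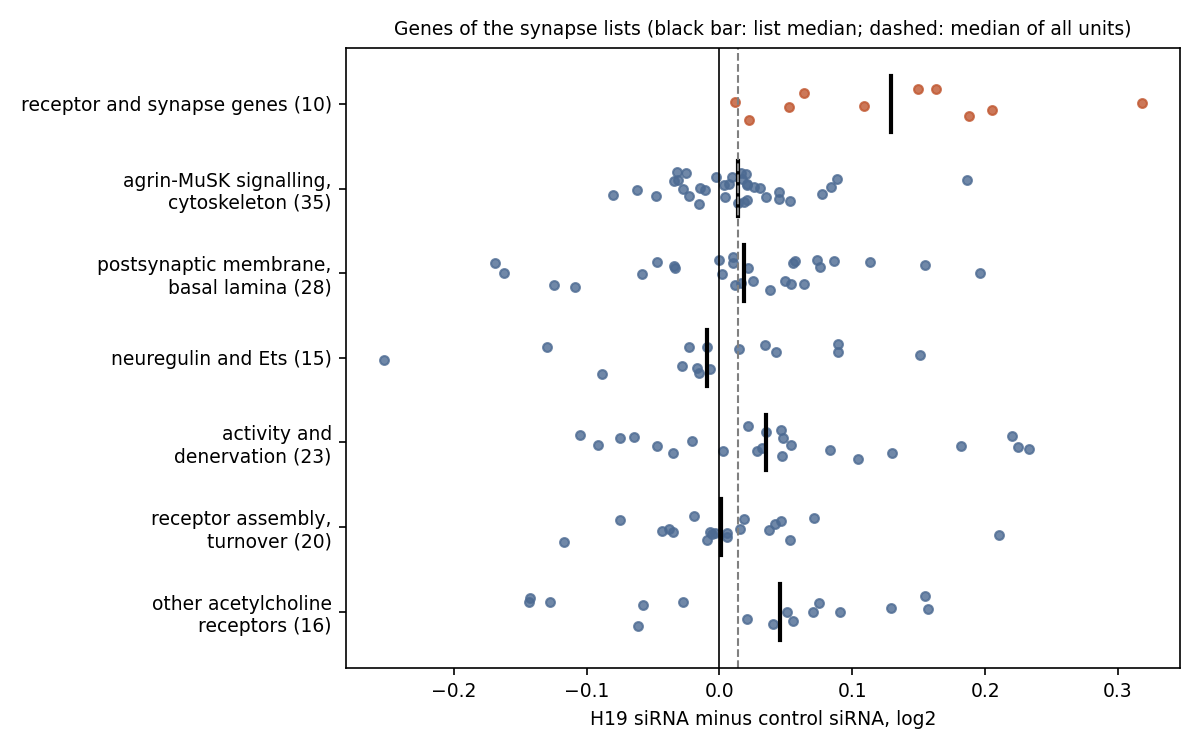
Difference of every measured gene (log2, H19 siRNA minus control siRNA) in the set of 10 receptor and synapse genes and in 6 lists of the synapse pathway, 1 point per gene, with list medians as black bars and the median of all units dashed. The 10 genes have a median of 0.13, and the medians of the 6 lists lie between -0.01 and 0.05. The muscle markers, not drawn here, had a median of 0.10.

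For the pair of genes with the smallest p, the genes nearest in profile were taken from 9692 genes by the root mean square difference of centred values over 6 arrays. Nearest to Rapsn were Irf9 (0.028), Rbm24 (0.028), Hmox1 (0.032), Stat2 (0.035) and Islr (0.037). Irf9 and Stat2 encode partners in the interferon response, Rbm24 a muscle splicing regulator and Hmox1 heme oxygenase. Their differences between groups ran from 0.25 for Stat2 to 0.30 for Irf9. Nearest to Musk were Ddx51 (0.0092), Tnc (0.012), Tnnc1 (0.013), Sytl2 (0.013) and Mylpf (0.014). Tnc encodes the matrix protein tenascin C, and Tnnc1 and Mylpf encode the slow troponin C and a fast myosin light chain. Their differences ran from 0.13 to 0.16. All 10 nearest genes were higher on every H19 siRNA array, as were 10.5% of all units. This and the size of their differences follow from choosing them by likeness to Rapsn and Musk over the same arrays.

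The levels of marker lists for muscle and for other cells are given beside these results. Summed on the linear scale, 13 muscle markers ran from 26871 to 27170 with control siRNA and from 29270 to 30206 with H19 siRNA. Of these markers 10 were positive and 0 passed in limma. At an unadjusted p under 0.05, 6 were higher and 2 lower (Casq2 and Ttn), against 6.61% and 4.25% of all units. Their median difference was 0.10, against 0.13 for the 10 receptor and synapse genes and 0.01 over all units. The groups did not overlap for 7 higher and 2 lower markers, where 10.5% and 7.09% of all units were so. The 7 fibroblast markers ran from 15287 to 15595 with control siRNA and from 13017 to 13295 with H19 siRNA. Dcn, the brightest of them, averaged 6714 and 4741 on that scale, and the other 6 ran from 8687 to 8830 and from 8274 to 8633. Of the 7 markers 3 were positive, Col1a2 (0.04), Thy1 (0.07) and Col1a1 (0.01), and Col1a2 was higher on every H19 siRNA array. At an unadjusted limma p under 0.05, 4 were lower and 0 higher, where 4.25% of all units were lower and 6.61% higher. Dcn (-0.50) and Lum (-0.95) fell in limma with all 6 arrays, with adjusted p-values of 0.00727 and 0.0227. In that fit 0.0742% of all units were called lower. With any array but the second H19 siRNA array left out, adjusted p-values ran from 0.0567 to 0.0774 for Dcn and from 0.0830 to 0.143 for Lum. Over all rows of the table the adjusted p was 0.0294 for Dcn and 0.0866 for Lum. The part of either marker list in the differences of the receptor genes was not tested. In bulk RNA, fewer cells of a type and less RNA per cell cannot be told apart.

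Of 12 motor neuron markers 10 lay below the median of all units, and their sum ran from 1368 to 1446 with control siRNA and from 1415 to 1469 with H19 siRNA. Chat, which makes acetylcholine, read 5.37 and 5.51. The 6 measured Schwann cell markers summed to between 8018 and 8250 with control siRNA and between 8037 and 8318 with H19 siRNA, and 4 of them lay below that median. Pmp22 made up 91.9% of this sum on average, and the other 5 ran from 648 to 675 and from 658 to 673. In these lists 0 markers passed in limma, with 1 in each higher and 0 lower at an unadjusted p under 0.05. Their part in the result was not tested.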

How the data were processed

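Log2 expression values were deposited for 6 arrays, and per the submitters' processing notes the authors used RMA and Affymetrix Expression Console. Software version and probe set annotation were not given in the sources used here. RMA is known to compress differences near background. Of 35556 rows, 21789 had 1 gene symbol in GEO's platform annotation, 1621 had several and 12146 were not listed. The probe set with the highest mean stood for a gene, and probe sets with several symbols stayed as unnamed units, giving 21559 units. Groups were compared with limma 3.58.1 (R 4.3.3, functions lmFit and eBayes) in two-sided tests, with no covariate or filter and with Benjamini-Hochberg adjustment over all units. Standard errors and intervals are limma's moderated ones. The fit was run on simulated data of independent noise as a check of the calculation, and no result here rests on it.

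The genes, lists and tests were chosen with earlier results of these data known. Named genes are the 10 members, up to 4 genes with the smallest p of each list, and the 5 genes nearest in profile to each of the 2 members with the smallest p. For list genes picked by p, groups that do not overlap follow in part from that choice. Casq2, Ttn, Dcn, Lum, Col1a2, Thy1, Col1a1, Pmp22 and Chat were named after their values were seen. Of 145 pathway genes written, 136 had a unit. Levels of different probe sets were not ranked, and Chrng minus Chrne was compared only between groups. The 3 arrays per group limit precision. Alternatives were an intensity trend, array weights, 2 filters on dim units, 2 scalings, averaged probe sets, all rows, the replicate number as a block and each array left out.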

Additional observations from a re-analysis of the deposited data

How the results depend on the processing

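Of 10 receptor and synapse genes, 0 passed in limma with all 6 arrays, and 4 did so with a robust variance and an intensity trend, 1 did with array weights, 1 with the filter at the 30th percentile and 2 of 9 with the filter at the median, which leaves out Chrne. The count was 0 under the other 5 processing choices and with each array left out, and 0 were called lower under any of them. Pathway list genes that passed numbered 8, 2 and 5 with the trend, the filter at the 30th percentile and the filter at the median, against 0. Of all units 2.02%, 0.736% and 2.47% passed in those fits, against 0.199%. Etv1 (with the trend and the filter at the median) and Nid1 (with the trend) passed as lower, and the other pathway genes as higher. Units that passed numbered 43, and 435 with the trend, 70 with array weights, 111 and 266 with the filters, 11 over all rows and from 1 to 21 with an array left out. With the replicate number as a block 3 units passed, and Dcn and Lum were at adjusted p-values of 0.135 and 0.133. Same-numbered arrays had deviations that correlated at -0.02, -0.13 and -0.14, 0 of 6 arrays correlated best with their own number, and they were not treated as pairs. The difference of Chrne was -0.011 with array weights, -7.05e-05 after median centring and between -0.050 and 0.11 with an array left out, and that of Lrp4 was -0.010 after median centring. The cause of these changes was not tested. Without 1 array, Chrng minus Chrne ran from 0.030 to 0.21. Depth has no counterpart on these arrays, and dim probe sets such as Chrne could not be marked as undetected.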
